A study of Sus scrofa with 180 samples.

Results

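The subject is 8 marker genes of macrophages and other myeloid cells, *PTPRC*, *LAPTM5*, *SPI1*, *CD14*, *CD68*, *CTSS*, *ACP5* and *SPP1*, in the skeletal muscle of pigs. They were found by their symbols in the lists with which the study names its probes, 3967 probes for 3481 genes in the copy at hand, and the array files give the values. Each of the 8 genes had 1 probe there, and all 8 probes were among the 10987 kept of the 15198 on the array. The lists name only probes that differed between the muscles in these same arrays. The difference of a member between the muscles is therefore described here, and nothing is drawn from its test.

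The *Longissimus* (LM, the loin) and the *Semimembranosus* (SM, in the ham) of the same 90 pigs were sampled shortly after slaughter, and 1 single-colour Agilent array was hybridised for each muscle of each pig. The pigs were untreated, from half-sib families of an intercross between a Pietrain type line and a synthetic line of Duroc, Large White and Hampshire founders, and all of them carried the wild type at the HAL and RN loci. Each sample was a trocar core from the surface of the muscle, so the RNA comes from all its cells, and fewer cells of a type and less RNA per cell cannot be told apart. No slide and no scan day held both muscles (21 slides and 10 scan days for LM, 14 slides and 5 scan days for SM), so the muscle and these batches cannot be told apart.

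Macrophages live between the fibres of healthy muscle, clear dead cells and debris, and take part in its repair. They share many genes with the other white blood cells. *PTPRC* encodes CD45, the phosphatase on the surface of nearly all white blood cells, and *LAPTM5* a lysosomal membrane protein of blood cells. *SPI1* encodes PU.1, the transcription factor that directs the myeloid lineage. *CD14* is the receptor that hands bacterial lipopolysaccharide to the toll-like receptor TLR4. *CD68* is a membrane glycoprotein of the lysosomes and endosomes of macrophages, *CTSS* the lysosomal protease cathepsin S that prepares MHC class II molecules for antigen, and *ACP5* the tartrate-resistant acid phosphatase of osteoclasts and some macrophages. *SPP1* encodes osteopontin, a secreted protein that binds integrins and CD44.

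The probes are 60 bases long, and their first 30 bases are shown because an index used below is built on the count of C at the start of a probe. The capitals mark the first 15 bases, in which the letter C was counted, and the sequences come from the array files, written 5′ to 3′.
PTPRC: GTGAAATCCACCACGtggtacttttgaccc
LAPTM5: ACATAGCAATGGAATgggttccatgaaagg
SPI1: CCCCACACCTTTCCCccatcagcttcctga
CD14: TGACCTGACCCTGGAagggaatccctatat
CD68: GATCACAGCCAACCTcatgactgaacagcc
CTSS: GTGGGATTGCTAATTatccctcttacccag
ACP5: GGGGTGAGGAAGGAAagctctctcctgggt
SPP1: GAGCAGTCCAAAGAAtacacgatcaagacc
The first 15 bases held 10 C in the *SPI1* probe, 6 in that of *CD68*, 5 in those of *CD14* and *PTPRC*, 3 in that of *SPP1*, 2 in that of *LAPTM5*, 1 in that of *CTSS* and 0 in that of *ACP5*. Over the probes kept the median was 3, and 0.273% of them held 10 or more.

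Values are log2 processed signals, the brightness of a spot after background subtraction, with the median of the array subtracted. A value of 0 is thus the middle probe of an array, and levels of different probes are not compared. A spot counted as missing if it was saturated, uneven or not clearly brighter than its background. The share of probes well above background ranged from 69.2 to 99.9% on the arrays of LM and from 63.4 to 83.3% on those of SM. As a check of the tissue, the probes of *ACTA1*, the actin of the muscle fibre, had means of 8.31 and 9.46 in LM and of 9.14 and 10.2 in SM, far above the middle probe of the arrays.

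Among the genes of white blood cells at large, *PTPRC* ranged in LM from -1.93 to 1.02 with a median of -1.05, and in SM from -2.12 to 0.98 with a median of -0.71. The muscles overlapped over nearly the whole range, and the probe was higher in SM in 53 of 89 pigs. LM averaged -0.94 ± 0.57 (SD, n = 90) and SM averaged -0.65 ± 0.59 (SD, n = 89), a difference of -0.29 (SE 0.0859) for LM minus SM. *LAPTM5* ranged in LM from -3.62 to -0.87 (median -2.38) and in SM from -1.94 to 0.91 (median -0.92). It was higher in SM in 90 of 90 pigs, although the lowest arrays of SM lay below the highest of LM. Its means of -2.33 ± 0.50 (SD, n = 90) and -0.90 ± 0.55 (SD, n = 90) correspond to a 2.70-fold higher signal in SM.

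*CD14*, the lipopolysaccharide receptor, ranged from -3.31 to -1.11 in LM (median -2.05) and from -1.75 to 0.23 in SM (median -0.99). It too was higher in SM in 90 of 90 pigs, with means of -2.03 ± 0.35 (SD, n = 90) and -0.90 ± 0.44 (SD, n = 90), a 2.18-fold difference. Among the lysosomal members, *CTSS* ranged from -0.63 to 1.90 in LM (median 0.12) and from -0.70 to 2.29 in SM (median 0.57). As with *PTPRC*, most arrays of the muscles overlapped, and 61 of 87 pigs had the higher value in SM. The means were 0.23 ± 0.50 (SD, n = 90) and 0.60 ± 0.61 (SD, n = 87), and the fold was 1.30.

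*ACP5* ranged from -3.34 to -0.28 in LM (median -2.04) and from -1.99 to 2.26 in SM (median -0.32). All of 90 pigs had the higher value in SM, and the pigs spread more widely there, with an SD of 0.91 against 0.54 in LM. Its means of -2.02 (n = 90) and -0.15 (n = 90) give a 3.66-fold higher signal in SM. *SPP1*, the osteopontin gene, was the most variable member: from -4.35 to 1.86 in LM (median -2.53) and from -3.68 to 2.34 in SM (median -1.15). The highest array was thus 74.2-fold above the lowest in LM and 64.7-fold in SM, and its SD was above that of 99.9% of the probes kept in each muscle. It was not well above background on 37 arrays of LM and 7 of SM. Over the others the means were -2.28 ± 1.36 (SD, n = 53) and -1.04 ± 1.39 (SD, n = 82), so the level in LM is that of the brighter arrays alone, and 37 of 50 pigs were higher in SM.

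*SPI1* and *CD68* stood apart from these 6 genes in other ways. The *SPI1* probe ranged from -1.40 to 2.43 in LM (median -0.45) and from 0.86 to 4.64 in SM (median 2.75), and its spot was not uniform on 41 of the 90 arrays of LM. It was higher in SM in 44 of 44 pigs with both values, with means of -0.23 ± 0.95 (SD, n = 49) and 2.79 ± 0.85 (SD, n = 85), an 8.11-fold difference. When all spots were used, LM minus SM changed from -3.02 to -1.95, so the uneven spots of LM were brighter on average than those kept. The LM values, the count of pigs and the fold given here are thus those of the dimmer arrays on the whole. *CD68* was the member with the higher mean in LM. It ranged from -3.80 to -1.64 in LM (median -2.71) and from -3.55 to -2.04 in SM (median -3.07), and LM exceeded SM in 53 of 77 pigs. Its means of -2.61 ± 0.56 (SD, n = 89) and -3.01 ± 0.27 (SD, n = 78) differ by 0.40 (SE 0.0687), a 1.32-fold higher signal in LM.

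**Figure D1:**
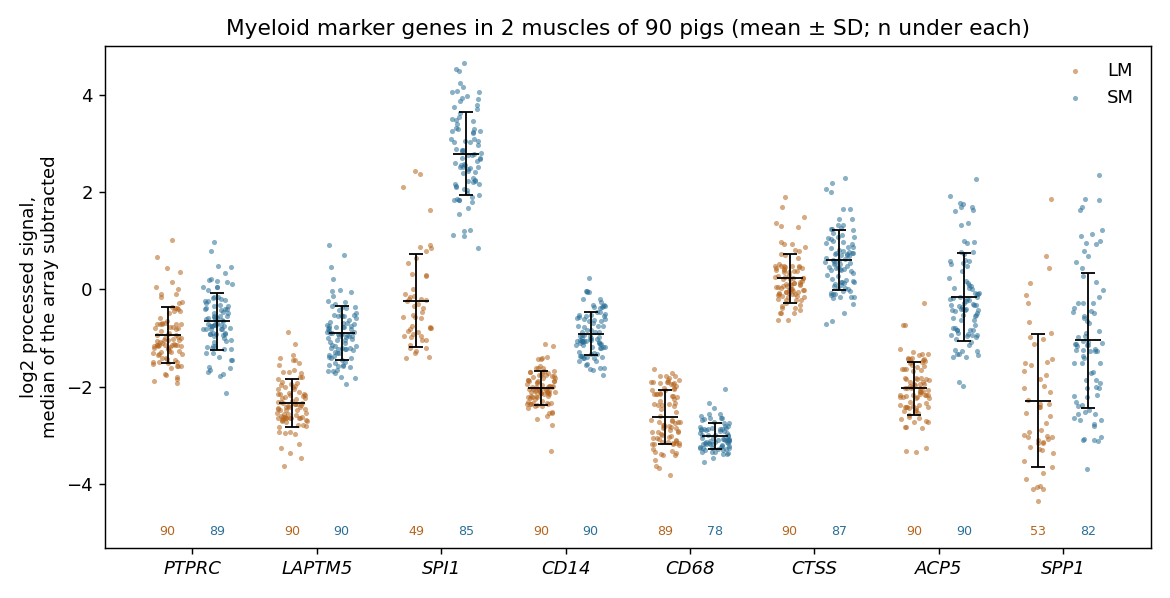
Log2 processed signal of the 8 members, with the median of each array subtracted, for each array of LM (brown) and SM (blue). Black bars are the mean and SD and the numbers at the bottom count the arrays with a value. *LAPTM5*, *SPI1*, *CD14* and *ACP5* lie higher in SM, *CD68* is spread upward in LM, and *SPP1* has the widest range.

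By the adjusted p of limma, the probes of all 8 members were called between the muscles, 7 higher in SM and 1 higher in LM. Of all probes 83.5% were called, 47.7% with the higher mean in SM and 35.7% in LM, and since the lists chose the members on this contrast nothing is read from their count. The difference of *PTPRC* was the closest to its error: with scan days entered as random blocks it was -0.26, with an adjusted p of 0.1.

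The lists that name the members were not made from correlations between genes within a muscle. The study had, however, removed the probes that varied least across samples before it made them. That removal was not applied here, so the shares over all probes given below come from a wider set of probes. All pairs of 8 genes were compared, 28 in each muscle, by the Pearson correlation r across arrays, with 100000 permutations of the arrays and p values adjusted over the 56 pairs. In LM 14 of 28 pairs passed an adjusted p of 0.05, all with positive r, and in SM 19 of 28 passed, 17 with positive r. An r of 0.5 or more was reached by 4 pairs in LM and by 13 pairs in SM, against 1.53% of all pairs of probes in LM and 1.65% in SM. The median r over all pairs of probes was 0.01 in LM and 0.00 in SM.

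*PTPRC*, *LAPTM5*, *CD14* and *CTSS* moved together in both muscles. All 6 pairs among them passed in each, with r from 0.49 to 0.83 in LM and from 0.53 to 0.81 in SM. The tightest pair was the leukocyte phosphatase *PTPRC* with the protease *CTSS*. Its r was 0.83 in LM (n = 90; Spearman rho 0.79) and 0.81 in SM (n = 86; rho 0.78), with a permutation p of 1e-05, the smallest that the permutations can give, and an adjusted p of 2.95e-05 in each muscle for r and for rho. Without the 2 arrays farthest from the median of *PTPRC*, r was 0.79 in LM and 0.79 in SM. The arrays share slides, and with all values centred on their slide r was 0.85 in LM and 0.83 in SM. *LAPTM5* and *CD14* had an r of 0.58 in LM and of 0.79 in SM, with the same p values and with rho of 0.55 and 0.81. Without the 2 arrays farthest from the median of *LAPTM5* these r values were 0.56 and 0.77.

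*ACP5* followed these 4 genes less closely, with r from 0.39 to 0.50 in LM and from 0.41 to 0.64 in SM, and all 8 of these pairs passed. *SPP1* was called with all 4 in SM, with r from 0.45 for *PTPRC* to 0.65 for *CTSS* (rho from 0.44 to 0.68). In LM, where *SPP1* had 53 values, its r with the same 4 genes was 0.10, 0.11, 0.27 and 0.37, and the pair with *CTSS* alone passed (adjusted p = 0.0141 over the permutations). That call did not hold for rho (0.22, adjusted permutation p = 0.173) or without the 2 arrays farthest from the median of *CTSS* (r = 0.21). When all spots were used (n = 90), dim ones included, *SPP1* in LM passed with *CTSS* (r = 0.41), *CD14* (r = 0.28) and *LAPTM5* (r = 0.25), with adjusted permutation p values of 0.000172, 0.0143 and 0.0313, and the same 3 pairs passed in the deposited table. *ACP5* and *SPP1*, both genes that osteoclasts express strongly, were correlated with each other in both muscles. Their r was 0.50 in LM (n = 53, rho 0.41, adjusted permutation p = 0.000345) and 0.57 in SM (n = 82, rho 0.62, adjusted permutation p = 2.95e-05), and 0.32 and 0.54 without the 2 farthest arrays.

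*CD68* and *SPI1* followed the others little. The r of *CD68* with the 6 genes above ran from -0.22 to 0.35 in LM and from -0.29 to 0.21 in SM. In SM its pairs with *PTPRC* (r = -0.28) and *CTSS* (r = -0.29) passed with a negative sign, and neither passed for rho, which was -0.14 and -0.23. In LM the pair of *CD68* with *PTPRC* did not pass (r = -0.22, adjusted permutation p = 0.058). It passed there for rho (-0.26, adjusted permutation p = 0.0282) and without the 2 farthest arrays (r = -0.24, adjusted permutation p = 0.0438). Centred on the slide its r in LM was 0.0051. In LM its pair with *ACP5* passed (r = 0.35, rho = 0.38, adjusted permutation p = 0.00142 for r), but r was 0.14 with values centred on the slide, with an adjusted permutation p of 0.398. The pair of *CD68* and *CD14* did not pass (r = 0.19 in LM and 0.21 in SM), but it depended on the processing. Centred on the scan day its r was 0.39 in LM and 0.27 in SM, and it passed in both (adjusted permutation p = 0.00156 and 0.0302). It also passed in other settings, among them in LM for rho (0.24, adjusted permutation p = 0.0457) and after normexp (r = 0.35). In SM it passed in the deposited table (r = 0.29). Centred on the slide its r was 0.13 in LM and 0.12 in SM, and it passed in neither. The r of *SPI1* with the same 6 genes ran from -0.01 to 0.30 in LM, where none passed, and from -0.11 to 0.30 in SM, where *CD14* alone passed (adjusted permutation p = 0.01). Given the index of C-rich probes described below, that pair was at -0.16 and did not pass (adjusted permutation p = 0.211). *SPI1* and *CD68* were correlated with each other, with r of 0.34 in LM (n = 49, rho 0.39, adjusted permutation p = 0.028) and 0.42 in SM (n = 76, rho 0.37, adjusted permutation p = 0.000269). In LM the call was lost with values centred on the slide (r = 0.27, adjusted permutation p = 0.317), without the 2 farthest arrays (r = 0.31, adjusted permutation p = 0.0608) and with all spots (r = 0.09, adjusted permutation p = 0.502). In SM it was lost after normexp (r = 0.0060, adjusted permutation p = 0.96).

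**Figure D2:**
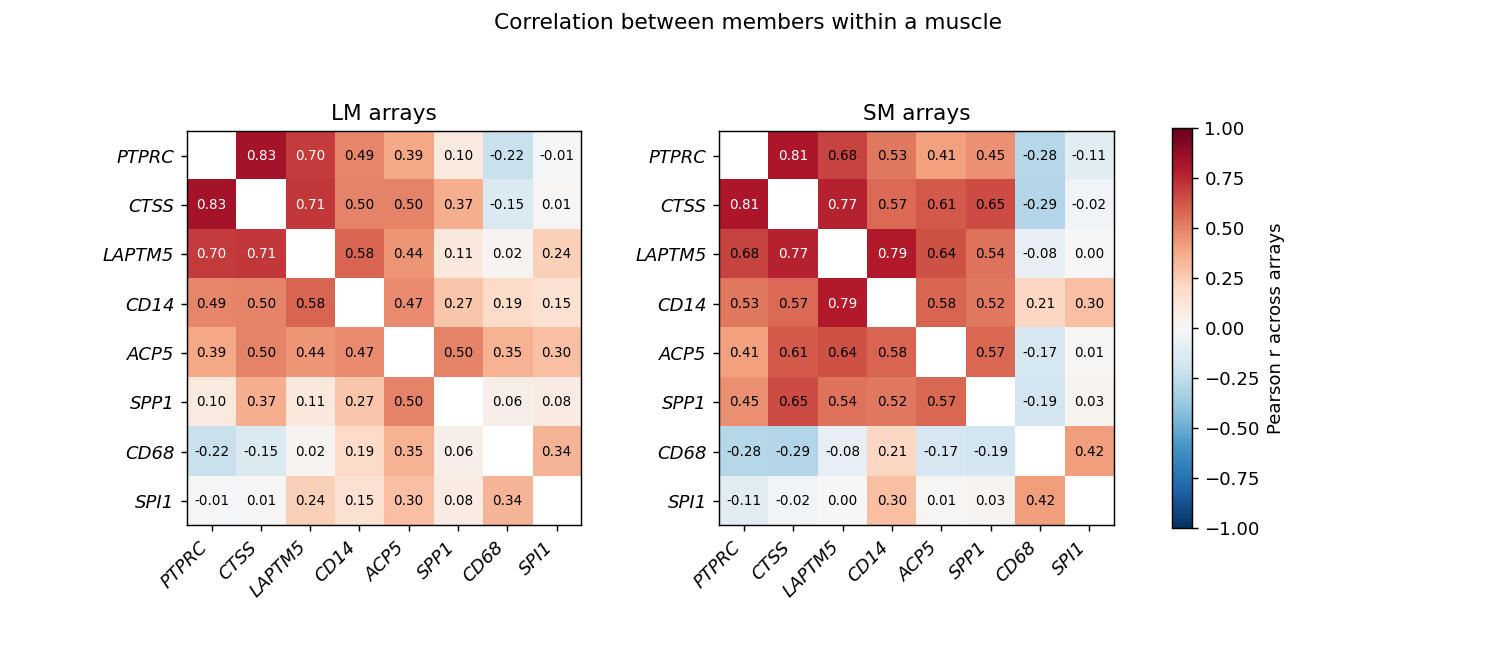
Pearson r across the arrays of LM (left) and of SM (right) for each pair of members, from -1 (blue) to 1 (red). The block of *PTPRC*, *CTSS*, *LAPTM5* and *CD14* is red in both panels, the r of *ACP5* and *SPP1* with it runs from 0.10 to 0.50 in LM and from 0.41 to 0.65 in SM, and the rows of *CD68* and *SPI1* are pale.

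Whether a pair's r differed between the muscles was tested by swapping the muscles within pigs (100000 draws, adjusted over 28 pairs). Of the 28 pairs 1 passed, *CD68* with *ACP5*, whose r was 0.30 in LM and -0.17 in SM over 77 pigs (permutation p = 0.00128, adjusted p = 0.0358). It no longer passed with values centred on the slide (0.14 and -0.16, adjusted permutation p = 0.369) or on the scan day (0.16 and -0.11, adjusted permutation p = 0.513). *LAPTM5* with *CD14* (0.58 and 0.79, adjusted permutation p = 0.0764) and *SPP1* with *PTPRC* (0.07 and 0.52 over 49 pigs, adjusted permutation p = 0.088) and with *LAPTM5* (0.13 and 0.63 over 50 pigs, adjusted permutation p = 0.088) were nearest to it. The higher r of *SPP1* in SM is therefore not shown to differ from LM.

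The highest arrays show part of this grouping. In LM the highest values of the 8 members fell on 4 arrays. The pig of replicate 63 had the highest value of *PTPRC*, *LAPTM5* and *CD14*, the second highest of *CTSS* and the third highest of *ACP5*, while its *CD68* ranked 41. The pig of replicate 34 had the highest *CTSS*, *ACP5* and *SPP1*, with *LAPTM5* at rank 5 and *CD68* at rank 43. The highest *SPI1* in LM, among the 49 arrays with a value, was that of replicate 22. This array was also high for the others but *CD68*, which ranked 40. It was at rank 2 for *SPP1*, 3 for *CD14*, 5 for *CTSS*, 7 for *ACP5*, 9 for *LAPTM5* and 10 for *PTPRC*. In SM the highest values fell on 8 arrays, or on 6 when outlying values were kept, since 5 high values of *CTSS*, *PTPRC* and *SPP1* in SM had been removed as outlying. With them the array of replicate 46 had the highest *LAPTM5* and *SPP1* and that of replicate 40 the highest *CTSS* and *ACP5*. The highest *PTPRC* after the removal, of replicate 86, was at rank 54 for *ACP5* and 48 for *SPP1*. The array with the highest *SPI1* there, that of replicate 66, ranked 84 of 89 for *PTPRC* and 88 of 90 for *LAPTM5*, and the array with the highest *CD68*, that of replicate 4, was the lowest of 89 for *PTPRC*.

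The *SPI1* values followed a property of the array. For each array an index was made from the average of 215 C-rich probes, whose first 15 bases hold at least 8 C, less the average of 3955 C-poor probes, which hold at most 2, each probe centred within the muscle and the members left out. *SPI1* had an r of 0.86 with this index in LM (n = 49, rho 0.83) and of 0.96 in SM (n = 85, rho 0.96), both with a permutation p of 1e-05 and an adjusted p of 0.000107 over the 32 relations of members with array measures. Without the 2 arrays farthest from the median of the index, r was 0.80 and 0.96. The r of *SPI1* was above that of 99.6% of all probes in SM. C-rich probes in general had a median r of 0.64 in LM and 0.73 in SM with the index, which they make up.

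*CD68* (r = 0.53, rho 0.47, adjusted permutation p = 0.000107) and *CD14* (r = 0.40, rho 0.45, adjusted permutation p = 0.00056) also followed the index in SM, and were at 0.51 and 0.49 without the 2 farthest arrays. In LM their r was 0.14 and 0.23, and neither passed. For *PTPRC*, *LAPTM5*, *CTSS*, *ACP5* and *SPP1* r lay between -0.20 and 0.10 in both muscles, and none passed. No member passed with the other measure, the share of probes well above background, where r lay between -0.26 and 0.22 and 1 of the 16 relations had an unadjusted p under 0.05.

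Given the index, the pair of *SPI1* and *CD68* turned from an r of 0.42 to -0.36 in SM, and was 0.30 in LM. The 6 pairs among *PTPRC*, *LAPTM5*, *CD14* and *CTSS* all passed with the index taken out, with *PTPRC* and *CTSS* at 0.83 and 0.81. The index also differed between the muscles: centred over all arrays, LM averaged -0.37 ± 0.33 (SD, n = 90) and SM averaged 0.38 ± 0.30 (SD, n = 90). With it in the fit, LM minus SM of *SPI1* changed from -3.02 to -0.31 (SE 0.118), that of *CD14* from -1.13 to -0.83 and that of *CD68* from 0.40 to 0.65. The part of the index in the level of *SPI1* was not tested beyond these values, and it cannot be told apart from the muscle in the comparison of LM with SM.

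**Figure D3:**
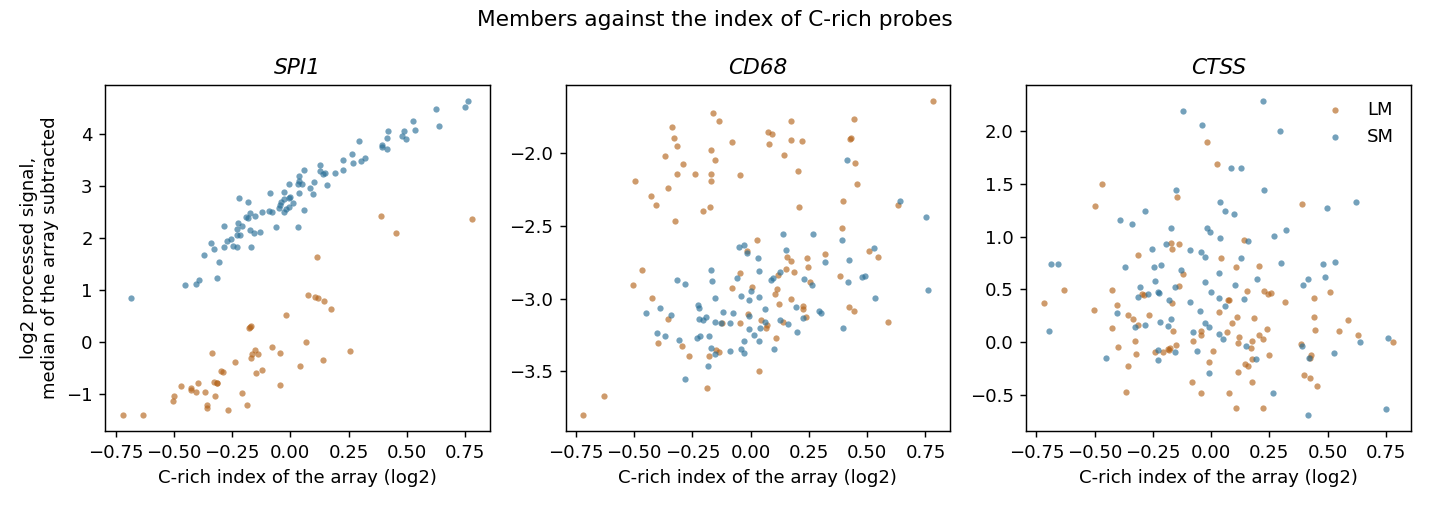
Log2 processed signal of *SPI1*, *CD68* and *CTSS* (vertical, median of the array subtracted) against the index of C-rich probes of the same array (horizontal, log2, centred within the muscle), for LM (brown) and SM (blue). *SPI1* rises along the index in both muscles (r = 0.86 and 0.96), *CD68* in SM (r = 0.53), and *CTSS* in neither.

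*CD68* in LM varied with the slides and scan days. On the slides with 3 or more arrays, 90.7% of its variance in LM lay between slides, more than for 99.6% of the probes, against a median of 35.9% over all probes. In SM 28.4% of its variance lay between slides, and the F test of limma gave an adjusted p of 0.0952. By that test *CD68*, *CD14*, *LAPTM5* and *ACP5* differed between slides in LM, 4 of the 7 members tested, against 53.7% of all probes. *SPI1* had slides without a value in LM and was not tested there, but with all spots used 65.6% of its variance lay between slides (adjusted p = 3.15e-09). In SM *SPI1* alone differed between slides (adjusted p = 0.0121), 1 of 8 members against 15.0% of all probes.

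The arrays of LM fell into 2 sets of scan days, divided after the day means had been seen, so the values of the sets are descriptions with no test. The 49 arrays scanned on days 1 to 6 had a *CD68* mean of -2.21 ± 0.36 (SD, n = 49), and day means from -2.60 to -1.90. The 41 arrays of days 7 to 10 had a mean of -3.10 ± 0.29 (SD, n = 40), and day means from -3.14 to -2.81. These lay near the day means of SM, which ran from -3.09 to -2.81. The difference was one of the means of the sets, and single arrays overlapped, from -3.00 to -1.64 on days 1 to 6 and from -3.80 to -2.51 afterwards. Slide means overlapped too. On scan day 3 slides 26 and 27 had means of -2.70 and -2.95 and slide 28 one of -2.11, while the later slides 47 and 52 were at -2.90 and -2.72. The SM arrays of the same pigs did not show this difference: -2.98 ± 0.28 (SD, n = 44) for the pigs of the first days and -3.04 ± 0.27 (SD, n = 34) for the others. In the pigs of days 1 to 6 *CD68* was higher in LM in 43 of 44, by 0.76 (SE 0.0693). In the pigs of days 7 to 10 it was higher in LM in 10 of 33, with a mean difference of -0.07 (SE 0.0546). The higher *CD68* of LM thus rests on the arrays of the first 6 scan days. Within days 1 to 6 the *CD68* means in LM were -2.14 (n = 27) and -2.29 (n = 22) for versions 9.5.1.1 and 9.5.3.1 of the reading software. Within days 7 to 10 they were -3.05 (n = 16) and -3.13 (n = 24), and the part of the version was not tested. The probe is dim, with a median processed signal of 79.2 in LM and 50.7 in SM, and after normexp background correction LM minus SM was 0.01 (adjusted p = 0.817 by limma).

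Set by set, the other members kept their side. *LAPTM5*, *CD14*, *ACP5* and *SPI1* were higher in SM in every pig of both sets with both values, and LM minus SM of *LAPTM5* was -1.42 (SE 0.102) and -1.45 (SE 0.122). *PTPRC* differed by -0.42 (SE 0.131) in the pigs of days 1 to 6 and by -0.13 (SE 0.103) in the others, and *CTSS* by -0.49 (SE 0.127) and -0.18 (SE 0.0818). *ACP5* and *SPP1* had different means between these sets of pigs in SM. *ACP5* in SM was 0.14 ± 0.92 (SD, n = 49) in the first set and -0.51 ± 0.78 (SD, n = 41) in the other, and *SPP1* was -0.73 ± 1.44 (SD, n = 48) and -1.48 ± 1.20 (SD, n = 34). Pigs of both sets lay on 13 of the 14 slides of SM. The sets are defined by the scan days of LM alone, and what else differs between their pigs was not tested.

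**Figure D4:**
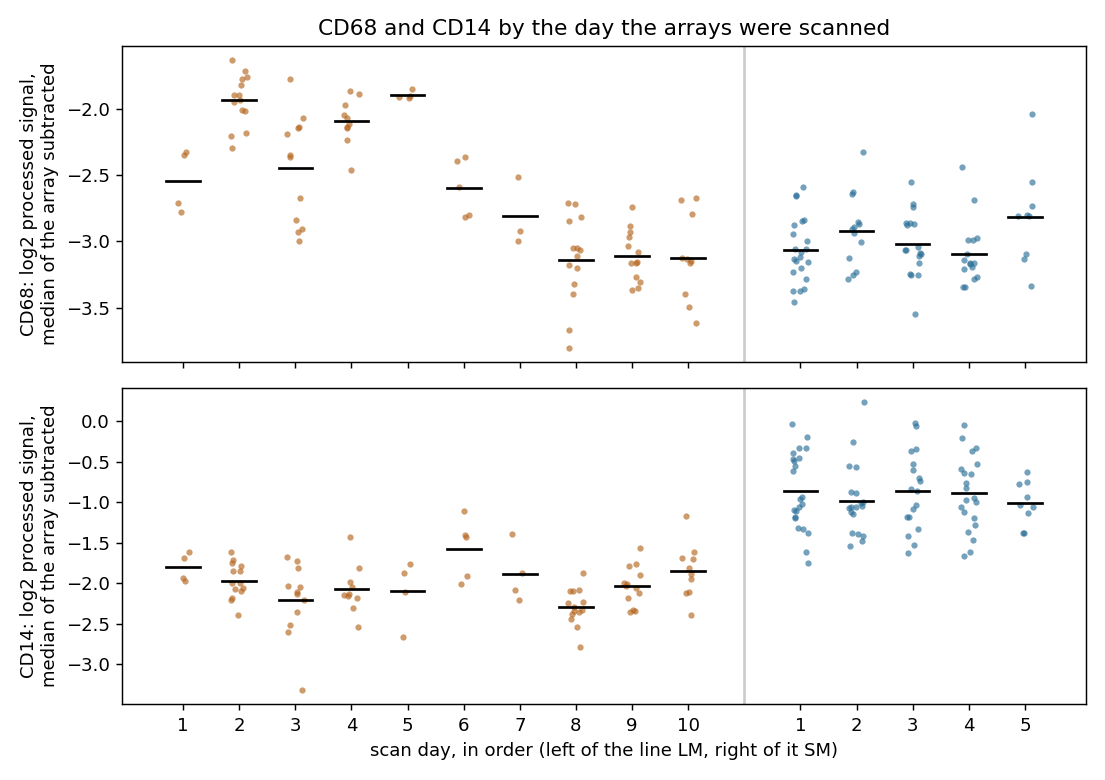
Log2 processed signal of *CD68* (top) and *CD14* (bottom), median of the array subtracted, for each array by scan day, LM (brown) left of the line and SM (blue) right of it, with the mean of each day as a black line. The day means of *CD68* in LM lie at -2.60 to -1.90 on days 1 to 6 and near those of SM afterwards, and *CD14* shows no such difference. Single *CD68* arrays of the earlier and later days overlap.

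No correlation between the LM and SM of the same pig was called in these genes. Over the pigs with both values (44 to 90), r between the muscles ran from -0.11 for *SPP1* to 0.17 for *CD68*, and none of the 8 passed after adjustment by the permutation test or had an unadjusted p under 0.05. The same count of 0 was found for rho. For *LAPTM5* r was 0.00, with a 95% interval from -0.21 to 0.21, and for *CD14* it was 0.12, from -0.09 to 0.32. The interval of *SPI1* (r = 0.11, n = 44) ran from -0.19 to 0.39, so a moderate r is not excluded. Over 10963 probes the median r between the muscles was 0.07. When all spots were used, *SPI1* alone passed (r = 0.29, adjusted permutation p = 0.0366).

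To see which other genes varied with the members, the z values of the 8 members were averaged for each array, and r with this mean was computed for every probe, a member being left out of its own mean. *LAPTM5* had the highest of these in LM (0.69) and *CD14* in SM (0.83). *CTSS* was at 0.67 and 0.71, *ACP5* at 0.65 and 0.62, *PTPRC* at 0.56 and 0.56, and *SPP1* at 0.32 and 0.59, each in LM and SM in turn. *SPI1* was at 0.25 and 0.12 and *CD68* at 0.11 and -0.08. Over all probes the median was 0.01 in LM and -0.06 in SM, and 1.36% of the probes in LM and 2.99% in SM reached 0.5. These r values, over up to 90 arrays that share slides, are descriptions with no test of a list.

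Of 32 other myeloid genes, 16 had a named probe, 21 probes in all. An r of 0.5 or more was reached by 10 of 21 in LM (median 0.42) and by 13 of 21 in SM (median 0.71). The highest were *IRF5*, a transcription factor of inflammatory macrophages, at 0.80 and 0.83, and *CYBA*, a subunit of the phagocyte oxidase, at 0.78 and 0.89. The lowest were *FOLR2*, a folate receptor of resident macrophages, at -0.20 and -0.09, and, in LM, *CD83*, whose 2 probes were at 0.01 and 0.05 there and at 0.30 and 0.33 in SM. With values centred on the slide *FOLR2* was at -0.01 in LM and -0.07 in SM. With the mean of *PTPRC*, *LAPTM5*, *CD14* and *CTSS* alone it was at 0.03 and 0.02. In the limma fit 19 of these 21 probes were higher in SM and both probes of *CD83* higher in LM, and as with the members the contrast had chosen them.

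All 6 probes of leukocyte cytoskeleton and signalling genes reached 0.5 in both muscles, with medians of 0.79 and 0.81. *VAV1*, a signalling protein of blood cells, was at 0.89 in LM and 0.87 in SM, and *HCLS1*, a cytoskeletal substrate of kinases in blood cells, at 0.68 and 0.78. Of the MHC class II genes, whose invariant chain CTSS cuts, 5 of 5 probes reached 0.5 in LM and 4 of 5 in SM (medians 0.67 and 0.66). *HLA-DMB* was the highest at 0.77 and 0.76. The lowest were *HLA-DRA* in LM (0.61, and 0.52 in SM) and *HLA-DOA* in SM (0.45, and 0.64 in LM). The genes placed on the lysosomal list followed less: 0 of 11 probes reached 0.5 in LM (median 0.10) and 3 of 11 in SM (median 0.44). *LGALS3*, galectin 3, which is not only a lysosomal gene, was the highest on that list at 0.41 and 0.73, and *CTSC* was at -0.04 and -0.09.

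Among markers of other cells of muscle, fibroblast genes had a median of 0.27 in LM and 0.48 in SM over 6 probes, of which 0 reached 0.5 in LM and 3 in SM, with the 2 probes of *FN1*, fibronectin, at 0.44 and 0.32 in LM and 0.63 and 0.64 in SM, and the part of fibroblasts in the members' values was not tested. None of the probes of the next 5 lists reached 0.5 in either muscle. The medians in LM and SM were -0.15 and 0.12 for endothelium (2 probes), 0.14 and 0.13 for smooth muscle (6 probes), 0.02 and 0.18 for adipocytes (3 probes), 0.12 and 0.12 for red blood cells (3 probes) and 0.04 and -0.02 for muscle fibres (7 probes). No neutrophil gene on the list had a named probe, so those cells were not covered. Among the receptors of osteopontin, *CD44* was at 0.43 and 0.73 and the integrin gene *ITGB1* at -0.17 and -0.07.

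**Figure D5:**
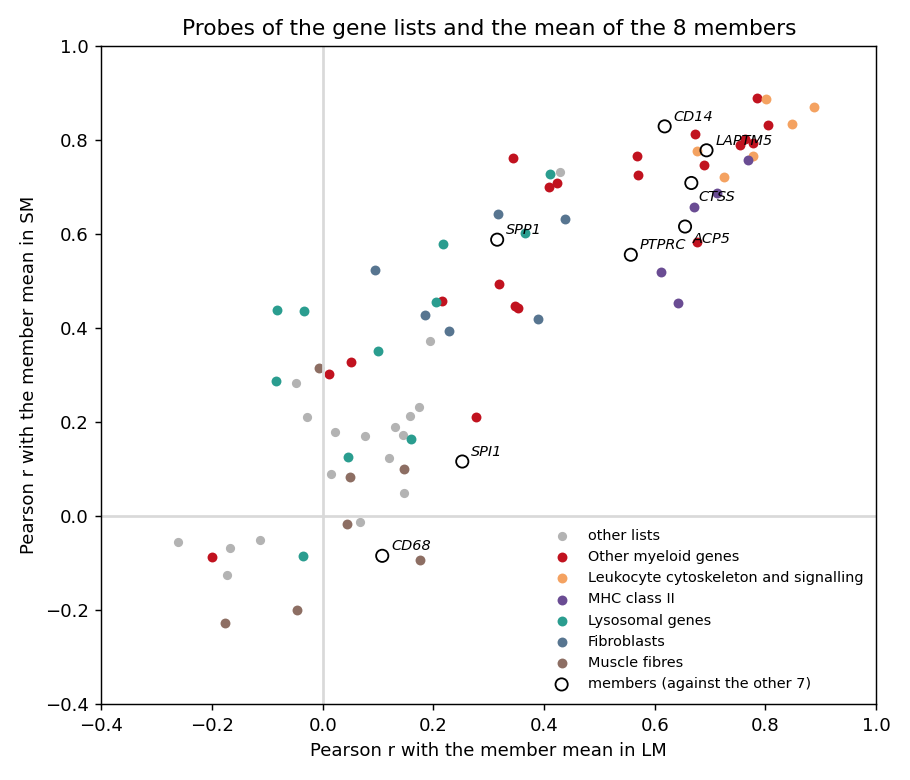
Pearson r with the mean of the 8 members in LM (horizontal) and in SM (vertical) for each named probe of the gene lists (coloured points) and for each member against the mean of the other 7 (open circles). Genes of leukocyte signalling, MHC class II and most other myeloid genes lie at the upper right with *CTSS*, *LAPTM5* and *CD14*, and *CD68* and *SPI1* lie with the muscle fibre and other lists.

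The genes most like each member were taken from the 3967 named probes by the lower of the slide-centred r values in LM and SM. For *PTPRC* they were *CD53*, a tetraspanin of leukocytes (0.82), *CTSS* (0.82) and *SRGN*, the proteoglycan of their granules (0.82). For *CTSS* they were the 2 probes of the Fc receptor gene *FCGR3B* (0.83 and 0.82) and *LCP1*, the plastin of leukocytes (0.83). For *LAPTM5* they were *NCKAP1L*, an actin regulator of blood cells (0.75), and the same 2 probes of *FCGR3B* (0.75 and 0.75). For *CD14* they were *NCKAP1L* (0.68), *IRF5* (0.65) and *CYBA* (0.65).

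For *ACP5* the nearest were *VAV1* (0.66), *LCP1* (0.64) and *FXYD5* (0.61), and for *SPP1* they were *ACP5* (0.46), *LGALS3* (0.40) and *TIMP1* (0.40). The r of *LGALS3* and *SPP1* in SM was 0.83 (n = 82), and its difference from LM (n = 53) was not tested. The genes nearest to *CD68* were no markers of white blood cells: *DLX5*, a homeobox gene (0.57), *FLCN*, folliculin (0.57), and *GJA1*, connexin 43 (0.54). Those nearest to *SPI1* were *PARP10* (0.91), the histone gene *HIST1H2AB* (0.90) and *SMC1A* of cohesin (0.90), whose probes held 9, 9 and 5 C in their first 15 bases.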

How the data were processed

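Total RNA of LM and SM from 90 pigs was hybridised to custom single-colour Agilent arrays of 15198 probes, 1 array for each muscle and pig (180 arrays in all). The deposited scanner files give the intensity of each spot, which the authors read with Feature Extraction 9.5, including the processed signal after background subtraction. The deposited value table holds natural log values of the processed signal centred within each array, and was used as an alternative after conversion to the log2 scale. The amount of RNA labelled is 500 ng per the labels. The study's lists of probes that differ between the muscles were used only to name probes, and 1 of them was at hand in shortened form. Its fold changes and p-values were not used.

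Following the authors' methods, a spot that was saturated, uneven or not clearly above its background was treated as missing, probes were removed if over 0.5 of their spots were missing in LM or in SM, log2 signals were centred on the median of the array, and 7434 values more than 3 SD from the probe mean were removed. The methods' removal of the least variable probes and their terms for sex, slaughter and hybridization batch and carcass weight were not used here. The labels give the pig of each array, and the arrays of LM and SM with the same replicate number carry the same pig for all 90 numbers, which pairs the muscles. Muscle and slide differences were fitted with limma 3.58.1 (R 4.3.3, statmod 1.5.0) over all probes kept, with Benjamini-Hochberg adjustment and a threshold of 0.05. Correlations were tested with 100000 two-sided permutations of the arrays (Python 3.11.15, NumPy 2.4.6, pandas 2.3.3, SciPy 1.17.1, matplotlib 3.10.9). In the pair tests values were centred on the slide over the arrays with both genes, and in the search for like genes over all arrays of each gene. The limma fit of muscle and the permutation test of r were tested on simulated data, and the F test of slides and the swap of muscles within pigs were not. The pigs are separate animals, but of related families, and the number of arrays limits the precision.

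The members, the gene lists and the tests were chosen with earlier results of these data known. Genes named besides the members are the 3 most like each member, over at least 30 arrays in each muscle, and up to 4 of each list, with the highest and the lowest r. One result of the lists is not reported here. Alternatives used all spots, no filter, other centring or quantile normalization, normexp background correction (offset 50), no removal of outlying values, the deposited table, the pig, slide or scan day as a block, the index of C-rich probes and the share of probes above background as covariates, rank correlations, and correlations without the 2 farthest arrays. The scan day, and the highest arrays with outlying values kept, were added after seeing the data.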

Additional observations from a re-analysis of the deposited data

Results flagged for a closer look

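The correlation of *CD68* with *ACP5* differed between the muscles by the test that swaps the muscles within pigs. The r in SM minus that in LM was -0.48 over 77 pigs (permutation p = 0.00128, adjusted over 28 pairs p = 0.0358). It was -0.30 with values centred on the slide (adjusted permutation p = 0.369) and -0.27 with values centred on the scan day (adjusted permutation p = 0.513). In LM 90.7% of the variance of *CD68* and 36.5% of that of *ACP5* lay between slides, and the part of the slides in the difference was not tested otherwise.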

How the results depend on the processing

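The direction of LM minus SM was kept for all 8 members under each of the 11 alternatives run. With the pig as a replicate block 9159 probes were called against 9169 without it, and the block changed no member's call. With the deposited table, which holds fewer probes, 6027 were called. 2 differences lost their call: *CD68* under normexp background correction (0.01, adjusted p = 0.817 by limma) and *PTPRC* with scan days entered as random blocks (-0.26, adjusted p = 0.1 by limma). The number of pairs called ranged from 11 to 19 in LM and from 15 to 19 in SM over the alternatives. The number of pairs whose r differed between the muscles was 1, and 0 with values centred on the slide and 0 with values centred on the scan day. The number of members correlated between the muscles of a pig was 0, and 1 (*SPI1*) when all spots were used. Then the mean r of *SPI1* with the other members in LM was -0.06. The share of the variance between slides passed the test in 5 more cases: *SPI1* in LM with all spots (65.6%), which was not tested otherwise, *CD68* in SM with 75th percentile centring (31.6%), *CTSS* in LM in the deposited table (34.1%), and *SPP1* in LM with all spots (42.4%) and in the deposited table (42.3%). The median r of MHC class II genes in LM was 0.80 with the mean of *PTPRC*, *LAPTM5*, *CD14* and *CTSS*, and that of the red blood cell probes in SM was -0.15 given the index of C-rich probes. The cause of these changes was not tested. Signal over background limits *SPP1* in LM and *CD68* in SM most.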
